A study of Sus scrofa with 21 samples.

Results

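The genes of the B cell receptor and the B lineage were followed in whole blood of DD and LW pigs. The named genes were MS4A1, CD79A, CD79B, PAX5, BLNK, CR2, CD22, VPREB1 and BTK, 9 genes in all, and the array of 45556 named features held a probe for 8 of them. They were chosen for their known role in B cells, with earlier results of these data known. MS4A1, CD79A, CD79B, BLNK, CR2 and BTK carry their own names on the array. The VPREB1 probes are filed there under a locus number and the PAX5 probe under a transcript number, and both were named through the RefSeq table. CD22, a sialic acid-binding co-receptor that restrains B cell receptor signalling, was not analysed here because no probe could be tied to its name or accession. The 8 genes had 12 probes, and all 12 passed the filter on dim probes.

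DD pigs are an inbred minipig line kept homozygous at the SLA locus, the pig major histocompatibility complex, and LW pigs are commercial Large White animals. Blood RNA was taken from 60-day-old pigs of both breeds, all on a standard diet fed ad libitum with no further treatment, and 1 one-colour Agilent pig array was hybridized per pig. There were 10 arrays of DD pigs, born in 5 litters, and 11 of LW pigs, born in 6 litters, and each of the 3 chips held both breeds. DD pigs stand for a single inbred herd, and littermates share a sow.

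B cells recognise antigen through membrane immunoglobulin, which signals through the CD79A and CD79B chains to the kinases SYK and BTK and the adaptor BLNK. Before a B cell precursor has a complete light chain, its heavy chain pairs with a surrogate light chain made of VPREB1 and an IGLL protein. Expression of the surrogate light chain ends as the cells mature, whereas MS4A1 (CD20), CD79A, CD79B and CR2 (CD21) are found on mature B cells and PAX5 holds cells in the B lineage.

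The sequences of the probes behind the main values are shown to make clear which part of each transcript was read. Both VPREB1 probes overlap by 54 bases, so that they are close to a single measurement, and the last 30 bases they share are printed. Capitals in the first CD79A probe mark its tyrosine codons, at bases 16 to 18 and 49 to 51, which belong to the immunoreceptor tyrosine-based activation motif that recruits SYK. The MS4A1 and PAX5 probes were the only probe of their gene and are printed whole.
VPREB1: ttcgaggattaaagctgcttctgccttggg
CD79A: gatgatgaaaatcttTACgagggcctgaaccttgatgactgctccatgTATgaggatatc
MS4A1: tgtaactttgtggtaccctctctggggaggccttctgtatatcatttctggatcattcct
PAX5: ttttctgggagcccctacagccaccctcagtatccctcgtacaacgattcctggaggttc
The second CD79A probe shares no stretch with the first, and over the 21 arrays the values of both correlated at r = 0.993. For VPREB1 the correlation between probes was 0.988. Of the 3 BLNK probes, a pair overlaps by 53 bases and correlated at 0.975, and the remaining one correlated with them at 0.731 and 0.666.

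DD arrays were dimmer than LW arrays. Brightness, taken as the 75th percentile of an array's processed signal on the log2 scale, averaged 7.53 ± 0.54 (SD, n = 10) for DD pigs and 8.22 ± 0.38 (SD, n = 11) for LW pigs. The breed means, DD before LW, were 7.95 and 8.02 for chip 1, 7.55 and 8.31 for chip 2 and 7.09 and 8.36 for chip 3. The share of probes with a signal well above background ran from 44.7% to 63.8% over the arrays, and no probe was saturated. All values are limited in precision by how many arrays there are. Values are deposited log2 intensities after quantile normalization, which sets all arrays to a common distribution. Of the 33326 features tested between breeds, in a limma model of breed and chip in which the sow was a random block, 7030 had a Benjamini-Hochberg adjusted p below 0.05. This is 21.1% of all features, with 11.5% higher and 9.63% lower in DD pigs. With brightness as a covariate 713 features had such a value, and without chip 3, for which the study's methods name a technical bias, 507 had it.

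Among the 8 measured genes, VPREB1 was lower and PAX5 higher in DD pigs, and 6 genes did not pass the threshold. The share past it, 2 of 8, is read against the 21.1% of all features. VPREB1 differed by −1.50 on the log2 scale and PAX5 by 0.61, whereas the 6 others lay between −0.11 and 0.30. The median of the 8 differences was 0.18, beside a median of −0.04 over all features. In none of the 8 genes were the breeds fully separated, as they were in 0.375% of all features. A lower signal in whole blood cannot tell fewer cells of a type from less RNA per cell.

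**Figure D1:**
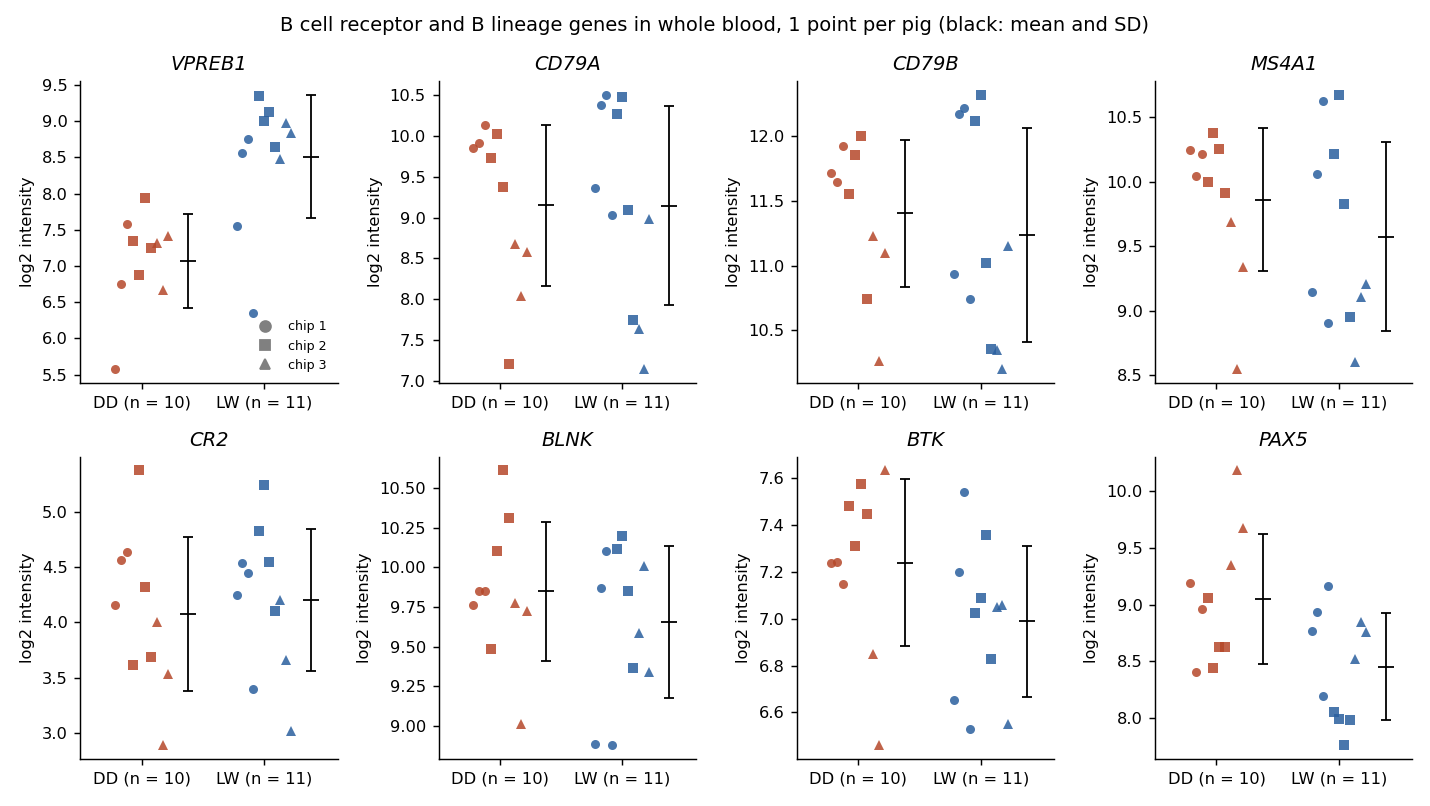
Log2 intensity (y axis) of the 8 measured genes in each DD and LW pig, with a symbol for each chip and the mean and SD beside the points. VPREB1 is the gene in which 9 of 11 LW pigs lie above all DD pigs, and the CD79A panel shows breeds of nearly equal mean, 9.15 in both.

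VPREB1 had the largest difference of the 8 genes. The lowest, median and highest log2 intensities were 5.57, 7.28 and 7.93 in DD pigs and 6.35, 8.75 and 9.34 in LW pigs. All 10 DD pigs were below the LW median, and 9 of 11 LW pigs were above every DD pig. The LW pigs within the DD range were LW_07, at 6.35, and LW_02, at 7.56, and the lowest DD pig was DD_01. The level averaged 7.07 ± 0.65 (SD, n = 10) for DD pigs and 8.51 ± 0.85 (SD, n = 11) for LW pigs, and both probes were well above background on all 21 arrays.

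The fitted VPREB1 level was 2.83-fold lower in DD pigs, with a log2 difference of −1.50 (SE 0.25, 95% interval −2.02 to −0.99, limma adjusted p = 0.000516). Of all features tested, 0.195% had a difference as low as this. Taken alone, the VPREB1 probes differed by −1.48 and −1.52. A size of at least 1 together with an adjusted p below 0.05 was found in 1.41% of all features and in VPREB1 alone among the 8 genes. On chips 2 and 3 every DD pig was below every LW pig, with differences of −1.68 and −1.63. PAX5 was fully separated on these chips too, with every DD pig above every LW pig. The share of all features separated within a chip was not counted. On chip 1, where breed brightness was nearest, the difference was −1.17 and 1 of 3 DD pigs was below all LW pigs. With brightness as a covariate the difference was −1.001 (limma adjusted p = 0.0873), and without chip 3 it was −1.36 (limma adjusted p = 0.0862). The adjusted p stayed between 4.2e-05 and 0.00191 when any 1 of the 21 pigs was left out. On litter means the difference was −1.36 (limma adjusted p = 0.0442), and without chip 2 it was −1.06 (limma adjusted p = 0.0478).

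**Figure D2:**
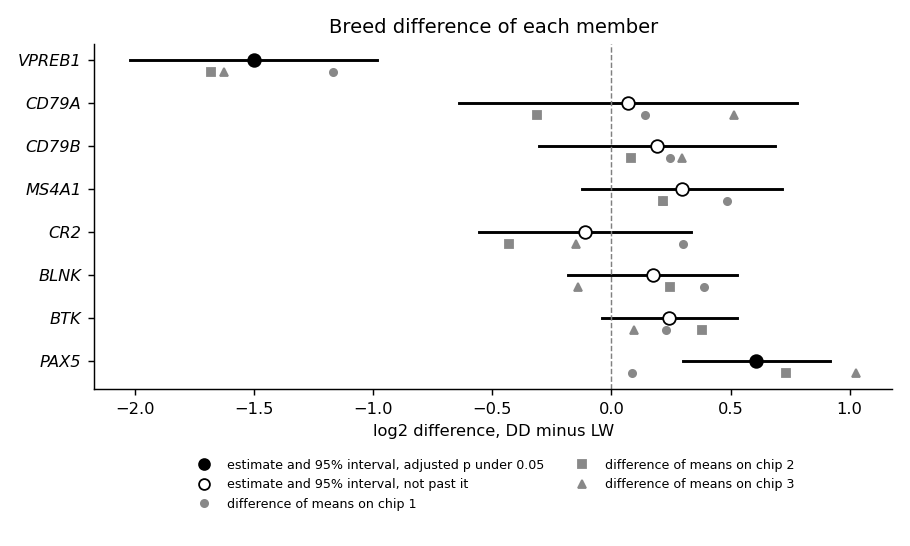
Log2 difference between DD and LW pigs (x axis) of each gene, with the 95% interval of the limma fit as a line and the plain difference of means on each chip as grey symbols. VPREB1 is below 0 on all 3 chips, and PAX5 runs from 0.09 on chip 1 to 1.03 on chip 3.

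VPREB1 was next set against each of the other genes within the same array, which shows whether its difference is larger than theirs. For MS4A1, the mean of VPREB1 minus MS4A1 was −2.79 ± 0.84 (SD, n = 10) for DD pigs and −1.06 ± 0.82 (SD, n = 11) for LW pigs, a breed difference of −1.80 (SE 0.22, 95% interval −2.27 to −1.33). On each chip every DD pig was below every LW pig in this measure, by −1.65 on chip 1, −1.90 on chip 2 and −1.84 on chip 3 in the means. Against the adaptor BLNK the breed difference was −1.67 (SE 0.21, 95% interval −2.11 to −1.24), and LW_07 was the LW pig within the DD range. Against CD79B it was −1.69 (SE 0.25, 95% interval −2.22 to −1.16). The interval was widest among the receptor chains for CD79A, at −1.57 (SE 0.38, 95% interval −2.36 to −0.78). Against BTK, CR2 and PAX5 the differences were −1.75, −1.39 and −2.11, and all 7 intervals lay below 0. All 7 share the VPREB1 values, so that they are not 7 separate results.

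With brightness as a covariate, VPREB1 minus MS4A1 differed by −1.74 between breeds, VPREB1 minus CD79B by −1.56 and VPREB1 minus BLNK by −1.59. Without chip 3 these differences were −1.72, −1.54 and −1.72. With each of the 21 pigs left out in turn, the difference of VPREB1 minus MS4A1 ranged from −1.94 to −1.65. VPREB1 minus PAX5 was at −1.14 when brightness was a covariate.

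**Figure D3:**
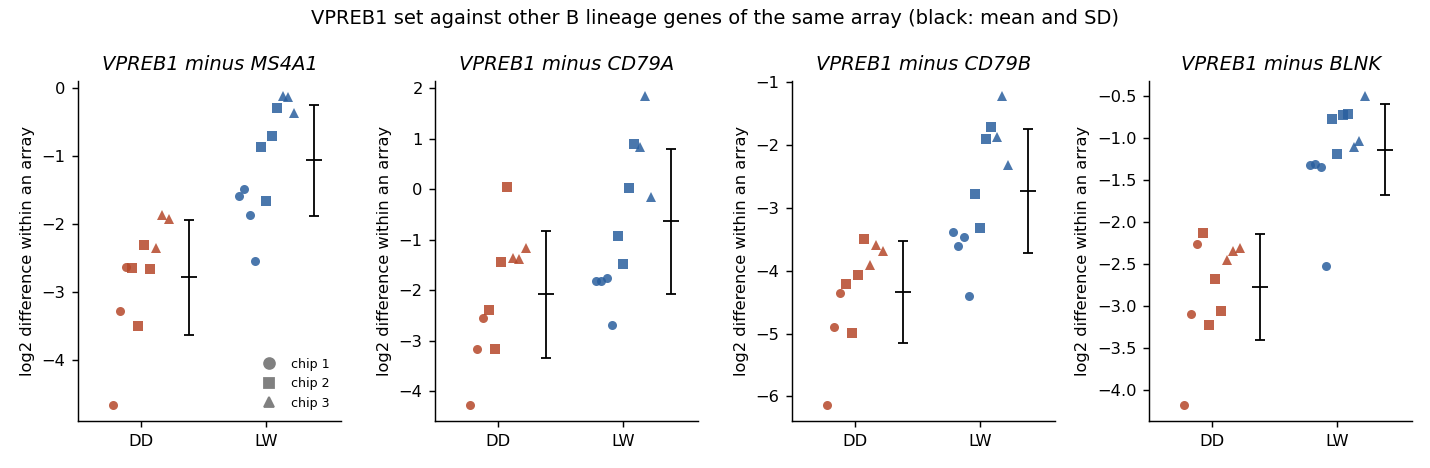
VPREB1 minus another gene of the same array on the log2 scale (y axis) in each DD and LW pig, with a symbol for each chip and the mean and SD beside the points. In the MS4A1 panel the DD symbols of a chip all lie below the LW symbols of that chip, and the CD79A panel has the widest spread.

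The receptor chains CD79A and CD79B, which carry the signal of the bound receptor into the cell, did not pass the threshold. The lowest, median and highest CD79A log2 intensities were 7.21, 9.55 and 10.13 in DD pigs and 7.14, 9.09 and 10.51 in LW pigs. Both breeds covered nearly the same range, and CD79A varied more between pigs of a breed than any other of the 8 genes, with an SD of 0.99 in DD pigs and 1.22 in LW pigs. Its difference was 0.07 (SE 0.34, 95% interval −0.64 to 0.78, limma adjusted p = 0.901). CD79B was at 10.26, 11.60 and 12.00 in DD pigs and at 10.19, 11.02 and 12.32 in LW pigs. Its difference was 0.19 (SE 0.24, 95% interval −0.31 to 0.69, limma adjusted p = 0.587). These intervals leave room for a change in either direction.

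The surface molecules of mature B cells did not pass it either. MS4A1, a membrane protein of B cells from the late precursor to the memory stage, was at 8.54, 10.02 and 10.38 in DD pigs and at 8.60, 9.21 and 10.67 in LW pigs, for the lowest, median and highest pig. Of the DD pigs, 9 of 10 were above the LW median, but the LW pigs covered the larger range. The difference was 0.30 (SE 0.20, 95% interval −0.12 to 0.72, limma adjusted p = 0.295). CR2, the receptor for complement C3d, gave a dim signal. Its single probe was well above background on 1 of 10 DD arrays and 3 of 11 LW arrays, and its log2 intensity ran from 2.89 to 5.38 in DD pigs and from 3.02 to 5.24 in LW pigs. The array names a cattle transcript as the source of this probe, so that its fit to pig CR2 was not tested, and the difference of −0.11 (SE 0.21, limma adjusted p = 0.739) describes signal near background.

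BLNK and BTK, which pass the signal on from SYK to phospholipase C, did not pass the threshold. BLNK was at 9.01, 9.81 and 10.61 in DD pigs and at 8.88, 9.85 and 10.20 in LW pigs, for the lowest, median and highest pig, with 5 of 10 DD pigs below the LW median. Its difference was 0.17 (SE 0.17, 95% interval −0.18 to 0.53, limma adjusted p = 0.481). BTK, on the X chromosome, was at 6.46, 7.27 and 7.63 in DD pigs and at 6.53, 7.05 and 7.54 in LW pigs. Its difference was 0.24 (SE 0.14, 95% interval −0.04 to 0.53, limma adjusted p = 0.198), and 8 of 10 DD pigs were above the LW median. When brightness was a covariate, the values of these genes were larger and still did not pass the threshold, at 0.74 for MS4A1 (SE 0.23, limma adjusted p = 0.117), 0.59 for BLNK (adjusted p = 0.106), 0.56 for CD79B (adjusted p = 0.532), 0.45 for BTK (adjusted p = 0.238) and 0.43 for CD79A (adjusted p = 0.881).

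PAX5, the transcription factor that commits cells to the B lineage, was higher in DD pigs by its single probe. Whether this probe reads pig PAX5 was not tested. The lowest, median and highest log2 intensities were 8.40, 9.01 and 10.18 in DD pigs and 7.76, 8.52 and 9.17 in LW pigs. Of the DD pigs, 4 were above every LW pig, and DD_21, DD_23 and DD_19, all on chip 3, were the highest. The difference was 0.61 (SE 0.15, 95% interval 0.30 to 0.92, limma adjusted p = 0.0112). By chip it was 0.09, 0.73 and 1.03 on chips 1, 2 and 3. It was 0.14 with brightness as a covariate (limma adjusted p = 0.779), and it also missed the threshold without chip 3, without the chip term and on litter means.

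The values of the PAX5 probe fell as the arrays became brighter. After breed and chip were taken out, its Pearson correlation with brightness over the 21 arrays was −0.88, whereas that of the 7 other genes ran from 0.28 for CD79A to 0.72 for CR2, with 0.54 for VPREB1. PAX5 also had a negative correlation with each of the 7 other genes, from −0.09 with CD79A to −0.58 with CR2. All of these arrays share their normalization, and the part of brightness in the breed difference of PAX5 was not tested beyond the covariate.

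**Figure D4:**
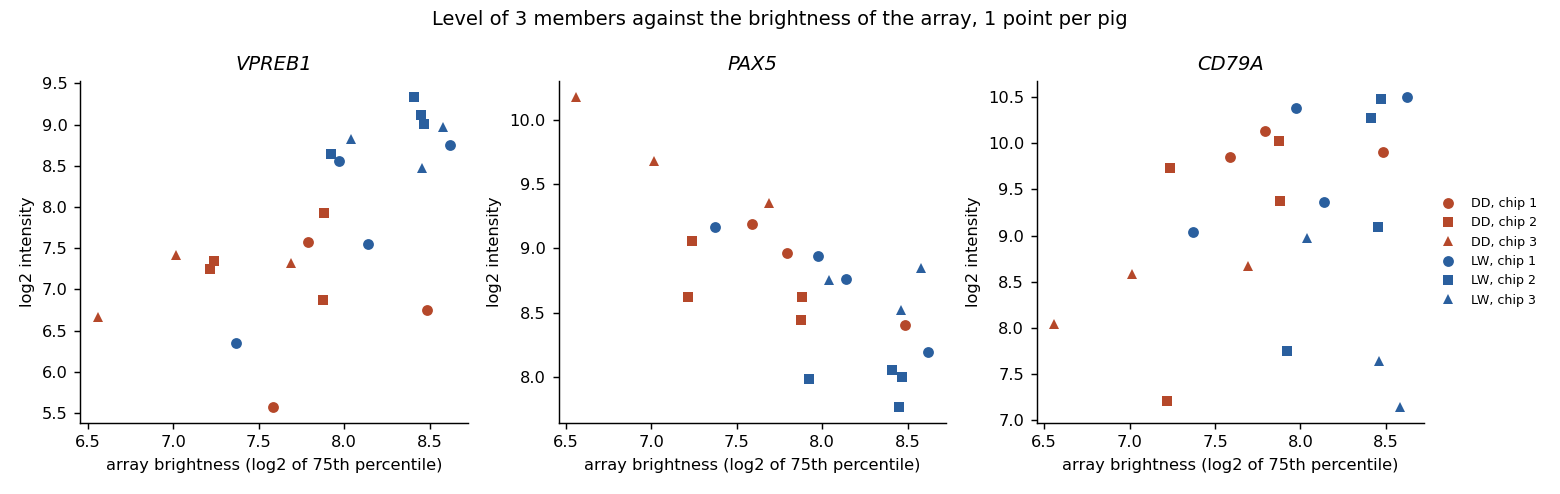
Log2 intensity (y axis) of VPREB1, PAX5 and CD79A against array brightness (x axis, 75th percentile of processed signal as log2), with colours for the breeds and symbols for the chips. PAX5 runs from 10.18 in the dimmest array, DD_21, down to 7.76 in LW_14, and on chip 3 no DD array is as bright as an LW array.

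The other genes varied together across pigs to unequal degrees. After breed and chip were taken out, CD79A and CD79B correlated at 0.90 over the 21 arrays, MS4A1 and CD79B at 0.88, MS4A1 and BLNK at 0.78 and MS4A1 and CD79A at 0.71. BLNK and BTK correlated at 0.69. The correlations were lower for BTK with CD79A at 0.15, BLNK with CD79A at 0.25, BTK with CR2 at 0.31 and BTK with CD79B at 0.37. VPREB1 correlated with BLNK at 0.65, MS4A1 at 0.61, CD79B at 0.56, BTK at 0.53 and CD79A at 0.37. These points share arrays and brightness, and the values describe these 21 arrays only. The lowest DD pig in MS4A1, CD79B, BLNK, CR2 and BTK was DD_21, which was also the highest in PAX5, and LW_12 was the highest LW pig in MS4A1, CD79B, BLNK and CR2.

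Likeness in these residuals was ranked only among features with a RefSeq gene name, 1 feature per gene. Most like the mean of MS4A1, CD79A and CD79B were SYK (r = 0.94), the kinase recruited by CD79A and CD79B, and CD72 (0.94), a B cell co-receptor. Next came CD74 (0.94), the invariant chain of MHC class II. The OCT2 probe of POU2F2 (0.94), a B cell transcription factor, and its co-activator POU2AF1 (0.93) followed. All 5 are genes known from B cells and other antigen-presenting cells. By the same ranking, the features most like VPREB1 were MGP (0.88), RNF25 (0.82), MICU3 (0.80), SLN (0.80) and ZC3H12C (0.79). Of these 5, MGP and RNF25 were lower in DD pigs, by −0.82 (SE 0.19, limma adjusted p = 0.00919) and −0.64 (SE 0.14, limma adjusted p = 0.0048). For MGP the call rests on how its probes are combined, since the probe with the highest mean gave −0.11 (limma adjusted p = 0.654), and without chip 2 the difference was −0.39 (limma adjusted p = 0.291).

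Further genes of B cell precursors were examined from a list of 14, of which 9 could be tested. Of these 9, 1 was higher and 1 lower past the threshold, beside 11.5% and 9.63% of all features. This is near those shares and is no result about the list. Besides VPREB1, VPREB3 passed the threshold, and it was higher in DD pigs, at 11.3 against 10.5 in the group means. VPREB3, a chaperone that binds immunoglobulin light chains and stays expressed in mature B cells, differed by 0.81 (SE 0.22, limma adjusted p = 0.0181). The difference was 1.37 with brightness as a covariate (limma adjusted p = 0.0017). Without the pig LW_18 it was 0.79 (limma adjusted p = 0.0523), and it also missed the threshold without chip 3, without chip 1, without the chip term and on litter means. The array has the same VPREB3 probe sequence under another name, which gave 0.78. A single RAG1 probe was kept, for the recombinase that joins immunoglobulin gene segments, and it differed by 0.27 (SE 0.15, limma adjusted p = 0.196), and EBF1, an early B lineage factor, by −0.15 (SE 0.24, limma adjusted p = 0.671). RAG2 and DNTT were removed as dim. The probe named IGLL1 was bright, at 12.1 in DD pigs and 12.8 in LW pigs, and differed by −0.59 (SE 0.39, limma adjusted p = 0.278). The IGLL1 value was −0.28 without the pig DD_16, −0.37 without chip 2 and −0.95 without chip 3. IGLL1 resembles the joined segments of immunoglobulin lambda, and whether its probe also reads lambda light chains was not tested.

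VPREB1 and VPREB3 are neighbours on chromosome 14 of Sscrofa11.1. VPREB1 lies at chr14:49972058-49972768 and VPREB3 at chr14:49924874-49929562, with 42496 bp between them. Within 200000 bp of VPREB1, RefSeq lists 19 other genes, and 14 of them had a tested feature. Besides VPREB3, DERL3, a factor of protein degradation in the endoplasmic reticulum, and MMP11, a matrix metalloproteinase, were higher in DD pigs, by 0.51 (SE 0.15, limma adjusted p = 0.0269) and 0.48 (SE 0.14, limma adjusted p = 0.0251). A second DERL3 feature differed by 0.21 (SE 0.21, limma adjusted p = 0.498). Of the 18 neighbouring features, 4 from 3 genes were higher and 0 lower by the limma adjusted p, beside 11.5% and 9.63% of all features. VPREB3 is counted there under both of its names. At an unadjusted limma p below 0.05, 6 of the 18 were higher and 0 lower. Of all 33326 features, 12242 had such an unadjusted p in either direction. MMP11 was named after its value was seen.

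The list of B cell surface genes showed no call in the main fit. Of 22 listed, 15 were tested, MS4A1, CD79A, CD79B and CR2 among them. Past the threshold in either direction were 0, beside 21.1% of all features. The median difference was 0.07, with a range from −0.19 to 0.80. At an unadjusted limma p below 0.05, 2 of the 15 genes were higher and 0 lower, beside 12242 of all 33326 features in either direction. Without chip 2, 2 of these genes were higher and the median was 0.28, and with brightness in the model it was 0.47. With brightness, 6 genes were higher and 0 lower at an unadjusted limma p below 0.05, beside 3897 of 33326 features in either direction. By the adjusted p, 1 gene was higher under the filter on signal well above background, and 1 by the probe with the highest mean.

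Of 10 transcription factors of the lineage tested, 2 were higher, 2 were lower and 6 did not pass the threshold, with a median of −0.03, beside 11.5% of all features higher and 9.63% lower. On litter means, with brightness and without chip 3 the limma count was 0 in both directions. At an unadjusted p below 0.05 it was 5, 1 and 3 of the 10, beside 8379, 3897 and 4117 of 33326 features. Besides PAX5, the POU2F2 probe was higher, at 0.87 (SE 0.28, limma adjusted p = 0.0323) and at 1.33 without chip 2, but the OCT2 probe of the same gene differed by 0.35 (SE 0.24, limma adjusted p = 0.289). ID3, an inhibitor of E proteins, was lower by −0.65 (SE 0.17, limma adjusted p = 0.0174). FOXO1, a factor of early B cells, was lower by −0.37 (SE 0.11, limma adjusted p = 0.0285). In each breed, however, a FOXO1 probe reached the flag for signal well above background in 0 pigs. The FOXO1 probe with the highest mean gave −1.13 (limma adjusted p = 3.35e-05), and with scaled signals the gene missed the threshold (limma adjusted p = 0.0744).

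In B cell receptor signalling, 1 gene was higher and 2 were lower of 16 tested, with a median of 0.07. This is near the 11.5% and 9.63% of all features and is no result about the pathway. The exchange factor VAV2 was higher by 0.40 (SE 0.11, limma adjusted p = 0.0225). A VAV2 probe also reached that flag in none of the 10 DD pigs, and the lowest count in LW pigs was 2. The VAV2 probe with the highest mean gave 0.95 (limma adjusted p = 0.021). BCL10, an adaptor of NF-kappa B activation, was lower by −0.31 (SE 0.10, limma adjusted p = 0.0308) and the exchange factor VAV1 by −0.29 (SE 0.10, limma adjusted p = 0.0445), which was −0.11 with scaled signals (limma adjusted p = 0.4). Of the germinal centre and memory list, 4 genes were tested and 1 was lower, beside 9.63% of all features. This was CD80, a ligand of CD28, at −0.48 (SE 0.13, limma adjusted p = 0.0172). The CD80 probe with the highest mean gave −0.26 (limma adjusted p = 0.138).

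Among the tested B lineage genes, IGJ and IGHA, of antibody secretion, had the largest differences after VPREB1. The joining chain JCHAIN, under its former name IGJ, was at 8.84 in DD pigs and 10.2 in LW pigs, lower by −1.32 (SE 0.22, limma adjusted p = 0.000438). The mean of 2 probes named IGHA, for the immunoglobulin alpha heavy chain that the joining chain links into polymers, was at 12.1 and 13.4. It was lower by −1.26 (SE 0.32, limma adjusted p = 0.013). With brightness as a covariate these differences were −1.06 (limma adjusted p = 0.0542) and −0.81 (limma adjusted p = 0.457), and without chip 3 they were −1.27 (limma adjusted p = 0.0674) and −1.24 (limma adjusted p = 0.262). XBP1, the factor of the secretory programme, was lower by −0.44 (SE 0.15, limma adjusted p = 0.0397). XBP1 passed it in 5 of 14 alternatives and with 7 of 21 pigs left out. Of the 6 plasma cell genes tested, 1 was higher, DERL3 as above, and 2 were lower, and of the 2 immunoglobulin features 1 was lower, beside the 11.5% and 9.63% of all features. DERL3 was at 0.02 when brightness was a covariate (limma adjusted p = 0.994) and at 0.31 with RefSeq names (limma adjusted p = 0.21). IGHM, for the mu heavy chain, has no probe of that name. Of the 21 genes outside the 9 that are named in the text as past the threshold, MMP11 not counted, 2 remained past it with brightness as a covariate, and all 21 missed it without chip 3.

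**Figure D5:**
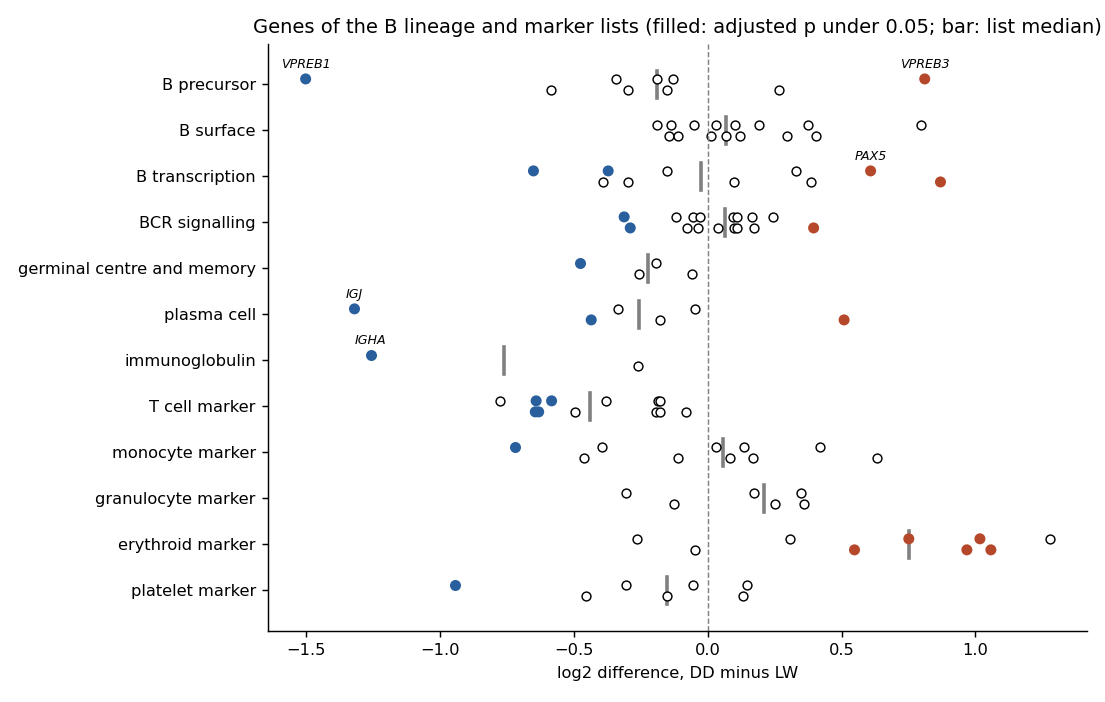
Log2 difference between DD and LW pigs (x axis) of the tested genes of each list, 1 point per gene, filled where the limma adjusted p was below 0.05 and with a bar at the list median. VPREB1 lies at −1.50 and VPREB3 at 0.81 in the precursor list, IGJ lies at −1.32, and no gene of the B surface list is filled.

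Of the markers of other blood cells, the T cell list had more lower calls and the erythroid list more higher calls than the 9.63% and 11.5% of all features. All 12 tested T cell markers were below 0 in the difference, with a median of −0.44, and 4 passed the threshold, among them CD3G at −0.64, CD8A at −0.64 and CD247 at −0.63, parts of the T cell receptor complex and its co-receptor. The mean log2 level of the T cell list per pig ran from 7.77 to 9.05 in DD pigs and from 8.16 to 9.16 in LW pigs. Of 9 erythroid markers, 5 were higher, among them EPB42 at 1.06 and CA1 at 1.02, with mean levels from 10.6 to 12.1 in DD pigs and from 10.3 to 11.6 in LW pigs. Of 10 monocyte markers CD163 was lower by −0.72, and of 7 platelet markers PPBP was lower by −0.94, beside 9.63% of all features lower. Among the monocyte markers 6 were above 0, with a median of 0.06, and among the platelet markers 2 were above 0. A CD163 probe was flagged as well above background in only 1 DD pig, and the lowest count of a CD163 probe in LW pigs was 2. Of 6 granulocyte markers 0 passed the limma threshold, their differences running from −0.31 to 0.36. The count was also 0 at an unadjusted p below 0.05, beside 12242 of 33326 features. CD8A was at −0.39 by its probe with the highest mean (limma adjusted p = 0.22) and passed in 3 of 14 alternatives. The limma counts of the T cell and erythroid lists were 0 on litter means, with brightness and without chip 3. At an unadjusted p below 0.05, in the same order, 6, 1 and 4 T cell markers were lower and 6, 0 and 2 erythroid markers higher. Of all 33326 features, 8379, 3897 and 4117 had such an unadjusted p in these fits, in either direction. By the adjusted p the erythroid count was 2 without the sow block and 1 without the chip term. When brightness was a covariate the median was −0.15 for the T cell markers and 0.06 for the erythroid markers, with EPB42 at 0.06, CA1 at 0.30 and PPBP at −1.94. PPBP was at −0.60 without chip 1 (limma adjusted p = 0.25). The part of these markers in the differences of VPREB1 and PAX5 was not tested.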

How the data were processed

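Whole blood RNA was measured on one-colour Agilent custom pig arrays, 1 per pig. The authors removed 3 outlier arrays before deposit and made the deposited log2 matrix by normexp background correction, log2 scaling and quantile normalization with limma. The deposited scanner files hold intensity values, not normalized between arrays, from Agilent Feature Extraction 10.7.3.1, with flags for signal well above background. Genome annotation was Sscrofa11.1.

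Breed came from the labels, and chip and sow from the study's list of animals. Controls and the 25% of probes with the lowest mean were removed, and the probes of a name (letter case ignored) were averaged. The model was fitted in limma (lmFit, duplicateCorrelation, eBayes) with breed and chip fixed and the sow as random block. The correlation within litters was −0.11. Without the sow block 4835 features were past the threshold. Differences within an array were fitted with the same terms and are given with intervals and no p. The genes and lists were chosen with earlier results of these data known. Outside the 9 genes, the text names the features past the threshold, at most 3 per list and direction. It also names the features with a RefSeq gene name most like VPREB1 and the mature B cell genes. A fixed set was named too (EBF1, IGLL1, VPREB3, RAG1, RAG2, DNTT, JCHAIN, IGHM). Some named genes are not reported here.

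The fit was tested on simulated arrays of 33326 features with the same chips and litters. It recovered 17 of 66 changes of 0.5 on the log2 scale, 57 of 67 of 1 and 66 of 67 of 2. Alternatives were other background corrections and scalings, filters, probe summaries, names, models, chips and pigs left out. Those for genes outside the 9 were chosen after seeing the data. Tools were R 4.3.3, limma 3.58.1, statmod 1.5.0, the data.table package (1.17.8), Python 3.11.15, pandas 2.3.3 and matplotlib 3.10.9.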

Additional observations from a re-analysis of the deposited data

How the results depend on the processing

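For the 8 measured genes, 275 of 291 alternative values kept their direction and side of the threshold. Most of these values leave out a pig or belong to the 6 genes not called, so the count says little about the calls. Apart from pigs left out, VPREB1 kept its call in 14 of 16 alternatives and PAX5 in 11 of 15. The 7 differences of VPREB1 from another gene all share the VPREB1 values. They kept their sign under other background corrections and scalings, with brightness as a covariate and without each chip or pig. Filters, probe summaries, litter means and models without the chip or sow were not run for these differences. The VPREB1 difference missed the threshold with brightness as a covariate (−1.001) and without chip 3 (−1.36), and over the pigs left out it ranged from −1.66 to −1.38. PAX5 missed it on litter means (0.57), without the chip term (0.60), with brightness (0.14) and without chip 3 (0.43), and ranged from 0.53 to 0.72 over the pigs left out. CD79A and CR2, which were not called, changed sign. CD79A was at −0.014 on litter means, −5.2e-05 without chip 1 and −0.13 without chip 3, and ranged from −0.10 to 0.31 over the pigs left out. CR2 was at 0.30 with signals scaled to the 75th percentile, 0.47 with brightness and 0.051 without chip 2, and it had no value under the filter on signal well above background. Of the genes outside these, RAG1 was at −0.11 with a normexp offset of 50, −0.026 without the filter on dim probes and −0.16 with brightness, and without DD_06 it was 0.36 and past the threshold. EBF1 was at 0.000571 with scaled signals, 0.49 with brightness and 0.21 without chip 3, and ranged from −0.24 to 0.022 over the pigs left out. The cause of these changes was not tested.

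The 7030 features past the threshold became 4348 without the filter on dim probes, 920 on litter means, 1857 without the chip term, 713 with brightness as a covariate and 507 without chip 3. Over the pigs left out the count ranged from 2122, without LW_18, to 11059, without DD_06. It also moved by more than 1.5 times without DD_21 (2952), DD_23 (3986), LW_05 (4502), LW_12 (4530) and LW_22 (3738). The split of 3821 higher and 3209 lower features became 4770 and 2114 with scaled signals, which moved the median of all features from −0.04 to 0.06. On litter means it was 310 and 610, and without the chip term 639 and 1218. Of the 21 genes outside the 9 that are named as called, MMP11 not counted, 2 kept their call on litter means, 2 with brightness as a covariate, and 7 without the chip term, and all 21 lost it without chip 3. Over the pigs left out, 5 to 21 of them kept it, with 5 without LW_18. No paired analysis between breeds was run, since the labels pair no DD pig with an LW pig and their litters differ.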
